A study of Mus musculus with 6 samples.

Results

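The genes described here belong to gene families of the cyclic AMP (cAMP) pathway, from the enzyme that makes the messenger to the transcription factors at its end. They were chosen by gene symbol: adenylyl cyclases (Adcy), phosphodiesterases (Pde), the catalytic and regulatory subunits of protein kinase A (PKA; Prkac and Prkar), A-kinase anchoring proteins (Akap), and CREB, CREM, ATF and related factors with the co-activator Crebbp. The symbols also take in relatives with other roles, such as the rod photoreceptor enzyme Pde6a and the stress factor Atf4. All are called pathway genes here, so counts and medians describe the symbol list. The symbols matched 60 probe sets, which represent 43 genes of the 8251 genes with a single symbol on the array. Each gene is given by its brightest probe set, and 32 of the 43 genes were bright enough to be tested.

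The tested material was visual cortex of wild-type C57Bl6 mice from which 1 eye had been removed at postnatal day 100. The mice were killed 4 days later. The compared groups were 3 arrays of the deprived cortex, contralateral to the removed eye and 3 arrays of the non-deprived cortex, ipsilateral to it. Both hemispheres therefore came from enucleated animals, and the non-deprived side is no cortex of an intact mouse. The labels name 4 mice and pooled samples. Neither the size of a pool nor whether each array had a pool of its own is said, so the spread that p-values measure here is that among arrays and may be technical.

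cAMP is made by adenylyl cyclases, which G proteins and, for some isoforms, calcium switch on or off, and it is broken down by phosphodiesterases. It frees the catalytic subunits of PKA from their regulatory subunits, and anchoring proteins hold the kinase at particular places in the cell. PKA and other kinases phosphorylate CREB, which then recruits Crebbp and drives genes that carry a cAMP response element (CRE) in their promoter. In visual cortex this pathway is known for its part in plasticity after loss of input from an eye, and it is regulated largely through phosphorylation, which an expression array does not measure.

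The CRE letters are shown first, since they link the pathway to its target genes. RefSeq promoters (GRCm38.p6, 250 bases before to 50 after each listed start site) were searched on both strands for the full palindrome TGACGTCA, 8 letters long, and for its core of 5 letters, TGACG or CGTCA, which every full site also holds. The stretches below, chosen after the genes' values were seen, run 5′ to 3′ with the core or full site in capitals. Fos and Nr4a1 are targets that fell in deprived cortex, Sst and Scg2 are targets with a full site, and Prkar1a, Prkar1b and Prkacb are PKA subunit genes with a full site or a core. Fos, Nr4a1 and Scg2 are shown over the 100 bases before the start site and the others over 30 bases around the site.
Fos, chr12:85473790-85473889, plus strand: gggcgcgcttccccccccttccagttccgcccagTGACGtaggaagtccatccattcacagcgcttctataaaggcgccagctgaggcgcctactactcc
Nr4a1, chr15:101266746-101266845, plus strand: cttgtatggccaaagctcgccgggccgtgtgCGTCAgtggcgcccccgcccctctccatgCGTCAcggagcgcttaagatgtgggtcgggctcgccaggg
Scg2, chr1:79440027-79440126, minus strand: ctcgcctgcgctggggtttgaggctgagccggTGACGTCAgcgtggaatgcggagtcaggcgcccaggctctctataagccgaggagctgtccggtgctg
Sst, chr16:23890874-23890903, minus strand: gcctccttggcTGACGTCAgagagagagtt
Prkar1a, chr11:109650889-109650918, plus strand: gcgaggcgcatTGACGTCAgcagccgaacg
Prkar1b, chr5:139150032-139150061, minus strand: agagggcggagTGACGggcaggaggacgag
Prkacb, chr3:146813030-146813059, minus strand: gggcttgaccgCGTCActtccggcgcgccc

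Of the 43 pathway genes, 32 had a promoter in the RefSeq table, and 1 of them, Prkar1a, held the full site (3.12%), against 549 of 27025 genes overall (2.03%). The core was present in 14 of the 32 genes (43.8%), against 23.0% of all genes. A gene with several start sites has more chances to hold a match: per promoter, the core stood in 25.4% of the pathway genes' promoters and in 20.8% of all promoters. The full site stood in 3.17% of the pathway genes' promoters and in 1.79% of all promoters. A match is a description of these letters only.

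The arrays were of like brightness, with median signals of 203 to 219.7, and log2 signals of any pair correlated at 0.9499 to 0.963 across probe sets. Markers of neurons, astrocytes, oligodendrocytes and microglia were read, with summed neuronal signals of 31074 to 36358 in deprived and 32556 to 35625 in non-deprived arrays. No tested marker of these or of endothelium, striatum, thalamus or hippocampus passed the limma threshold, and 1 astrocyte and 1 hippocampal marker had an unadjusted p under 0.05. The summed signal of 4 hippocampal markers was 1543 to 2233 in deprived and 1150 to 1613 in non-deprived arrays, and its part in the results was not tested. Most of that sum was Wfs1, with means of 1408 in deprived and 1061 in non-deprived arrays. Neurod6 (266 against 182) and Dsp (133.5 against 125) were also higher in deprived arrays. Prox1 was lower (32.6 against 49), and Prox1 and Dsp were under the filter. One array, non-deprived replicate 3, stood apart in a control, with 2689 on the 3′ probe set of 18S ribosomal RNA against 661 to 981 on the other 5 arrays. Without it no pathway gene passed either.

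The comparison asks whether transcripts of the pathway differ between the hemisphere opposite the removed eye and the other hemisphere. No pathway gene passed. By limma, with adjustment over all 7453 probe sets tested, 0 of 32 tested genes had an adjusted p under 0.05 in either direction (smallest adjusted p = 0.949), where 0.195% of all 5653 tested genes passed. At an unadjusted p under 0.05 there were 2 of 32 genes (6.25%), Pde7a and Prkar1b, against 5.18% of all genes. The median log2 difference, deprived minus non-deprived, was -0.02 over the 32 genes and 0.01 over all tested genes. The log2 difference was negative for 21 genes (65.6%, against 47.4% of all tested genes) and positive for 11. Of the 32 genes, 26 (81.2%) lay within 1.2-fold of no difference, against 79.2% of all genes. In bulk tissue, fewer cells of a type and less RNA per cell cannot be told apart, in these values and all that follow.

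**Figure D1:**
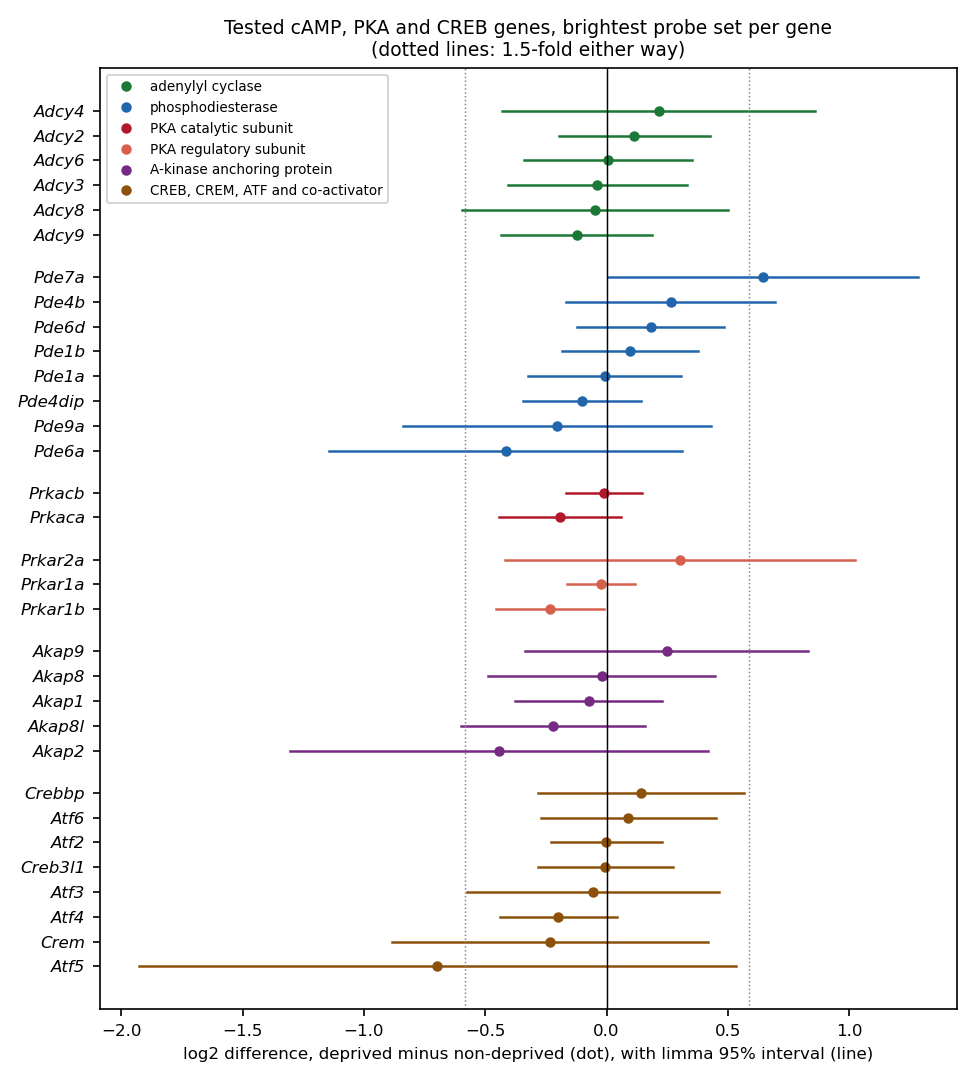
Log2 difference, deprived minus non-deprived (x axis), of the 32 tested pathway genes, grouped and coloured by role; lines are limma 95% intervals and dotted lines mark 1.5-fold either way. The intervals of 30 genes include 0, and those of Atf5, Akap2 and Pde6a reach furthest to the left.

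The 95% intervals, which are not adjusted for the number of genes, give the range of differences that the spread among arrays leaves for each gene. They do not give the size of change that would have passed the threshold. Btg2, a CREB target read below, was 1.86-fold lower in deprived cortex and did not pass (limma adjusted p = 0.137). For 20 of the 32 genes (62.5%) the whole interval lay within 1.5-fold either way, against 56.5% of all tested genes. Among the 12 genes with a mean signal of at least 1000 it did so for 11, and the highest upper limit among the 12 was a 1.34-fold rise. The lowest lower limit was that of Akap8l, at a log2 difference of -0.60, just beyond a 1.5-fold fall. A fall of 1.5-fold lay outside the interval for 25 of the 32 genes and a rise of that size for 27. Among the 20 dimmer tested genes the whole interval lay within 1.5-fold either way for 9. For the other 11 a difference of 1.5-fold in at least 1 direction lay inside the interval.

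Adenylyl cyclases make cAMP. Of 7 genes, 6 were tested, and their log2 differences ran from -0.12 to 0.22 with a median of -0.02. Adcy2, an isoform that calcium does not stimulate, read 2320, 2141 and 2345 signal units in deprived arrays, against 2607, 1756 and 2001 in non-deprived arrays. The deprived arrays lay inside the range of the non-deprived ones (log2 difference 0.11, SE 0.14, limma adjusted p = 0.967). Without non-deprived replicate 2 the log2 difference of Adcy2 was -0.01, and without non-deprived replicate 1 it was 0.27.

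Adcy9, a widely expressed isoform, read 1714, 1395 and 1481 in deprived arrays, against 1371, 1813 and 1843 in non-deprived arrays, and the groups overlapped (log2 difference -0.12, SE 0.14). Without non-deprived replicate 1 it was -0.26, and without non-deprived replicate 3 it was -0.05. A second probe set of Adcy9 had a log2 difference of -0.06 (SE 0.13). Adcy8, which calcium and calmodulin stimulate, read 286 ± 46.6 in deprived and 302 ± 90.7 in non-deprived arrays (SD, n = 3 each), with a 95% interval of the log2 difference from -0.59 to 0.50. Adcy3, known from olfactory cilia, and Adcy6, which calcium inhibits, had log2 differences of -0.04 (SE 0.16) and 0.00 (SE 0.15). Adcy4, at 253 ± 54.8 in deprived and 220 ± 70.8 in non-deprived arrays, had a log2 difference of 0.22 (SE 0.29). Among the isoforms whose symbols had no single-gene probe set are Adcy1 and Adcy5, which were not analysed here.

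Phosphodiesterases break down cAMP, cGMP or both, and the symbols also take in proteins that only bind them. Of 12 genes, 8 were tested, 4 with a negative and 4 with a positive log2 difference (median 0.04). The largest difference was that of Pde7a, a cAMP-specific enzyme. It read 196, 209.5 and 176 in deprived arrays, against 128, 97.3 and 132 in non-deprived arrays. All 3 deprived arrays were above all 3 non-deprived arrays, by 1.56-fold on average (log2 difference 0.64, SE 0.29, 95% interval 0.00 to 1.28, limma adjusted p = 0.949). The groups also did not overlap for Pde6d, so that 2 of the 32 tested pathway genes (6.25%) had groups apart, where 10.4% of all tested genes did. The non-deprived signal of Pde7a lies below the filter's mean signal of 134.7, where background may make up an unknown share of it, and the size of its difference is uncertain to that extent. Its log2 difference ran between 0.50 and 0.71 in the 15 alternatives that tested it, and its unadjusted p was under 0.05 in 7 of them; since the groups do not overlap, leaving out an array could not turn its sign.

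Pde4b, a cAMP-specific enzyme of the class that rolipram inhibits, read 564, 480 and 426 in deprived arrays, against 375, 515 and 337 in non-deprived arrays. The groups overlapped through non-deprived replicate 2 (log2 difference 0.26, SE 0.19). With 1 array left out the log2 difference of Pde4b ran between 0.14 (without non-deprived replicate 3) and 0.44 (without non-deprived replicate 2, limma adjusted p = 0.98). Pde1b and Pde1a are enzymes that calcium and calmodulin activate. Pde1b read 2021 ± 219.6 in deprived and 1891 ± 238 in non-deprived arrays (log2 difference 0.10, SE 0.13). Pde1a had 813, 1159 and 964 in deprived arrays, against 982, 977 and 962 in non-deprived arrays, on a probe set whose name marks probes shared between transcripts (log2 difference -0.01, SE 0.14). Its dimmer probe set read 269, 316 and 300.1 in deprived arrays, against 199, 286 and 204 in non-deprived arrays (log2 difference 0.35, SE 0.21), so the 2 probe sets of Pde1a differ in sign and neither passed.

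Pde6d, a chaperone that binds lipid-modified proteins, read 623, 602 and 611 in deprived arrays, against 596, 537 and 485 in non-deprived arrays (1.13-fold, log2 difference 0.18, SE 0.14, limma adjusted p = 0.967). Pde4dip, a protein that binds a phosphodiesterase at the Golgi and centrosome, had a log2 difference of -0.10 (SE 0.11) and the cGMP-specific Pde9a of -0.20 (SE 0.28). Pde6a, a rod photoreceptor enzyme, was the dimmest tested pathway gene. It read 85.8, 159 and 127 in deprived arrays, against 152, 164 and 185 in non-deprived arrays (log2 difference -0.42, SE 0.33). Crebrf, with a mean of 127 over all arrays, was the brightest gene to miss the filter. It read 115, 105.5 and 127 in deprived arrays, against 127, 128 and 160.0 in non-deprived arrays.

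Of 5 PKA subunit genes all were tested and none passed. Prkar1a, Prkacb and Prkar1b had the brightest signals of the pathway, and Prkar2a was among the dimmest tested genes. Prkacb, a catalytic subunit, read 7503, 7783 and 8162 in deprived arrays, against 8100.2, 7812 and 7691 in non-deprived arrays. The groups overlapped fully, and the log2 difference of -0.01 (SE 0.07) had a 95% interval from -0.17 to 0.15. Prkaca, the other catalytic subunit, read 2239, 2376 and 2243 in deprived arrays, against 2799, 2225 and 2866 in non-deprived arrays. Non-deprived replicate 2 lay below all 3 deprived arrays, and the other non-deprived arrays lay above them (log2 difference -0.19, SE 0.11, 95% interval -0.44 to 0.06). With 1 array left out the log2 difference of Prkaca ran between -0.31 (without non-deprived replicate 2, limma adjusted p = 0.898) and -0.13 (without non-deprived replicate 3).

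Prkar1a, a regulatory subunit and the pathway gene with the full CRE shown above, read 9835, 9839 and 9953 in deprived arrays, against 9914, 9973 and 10227 in non-deprived arrays. The groups overlapped narrowly, and the log2 difference of -0.02 (SE 0.06) had a 95% interval from -0.16 to 0.12. Prkar2a, another regulatory subunit, was dim, at 203, 238 and 132 in deprived arrays, against 107, 169 and 177 in non-deprived arrays. Its groups overlapped and its interval was wide (log2 difference 0.30, 95% interval -0.42 to 1.02), and with 1 array left out the log2 difference ran between 0.10, on leaving out non-deprived replicate 1, and 0.53, on leaving out deprived replicate 3.

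Prkar1b, a regulatory subunit of the nervous system, read 5829, 5718 and 5805 in deprived arrays, against 7539, 7155 and 5829 in non-deprived arrays. The deprived arrays agreed closely, and non-deprived replicate 3 sat at their level (log2 difference -0.23, SE 0.10, 95% interval -0.46 to -0.01, unadjusted p = 0.0419, limma adjusted p = 0.949). Without that array, the one with the high 18S signal, the difference was -0.34 (unadjusted p = 0.00186, limma adjusted p = 0.482). Without non-deprived replicate 1 it was -0.16 (limma adjusted p = 0.769). A second Prkar1b probe set went the other way, at 3079, 2733 and 2115 in deprived arrays, against 2316, 2539 and 2255 in non-deprived arrays (log2 difference 0.14, SE 0.13). The lower signal of the brighter probe set was therefore not seen on the dimmer one, and the mean of both had a log2 difference of -0.05.

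**Figure D2:**
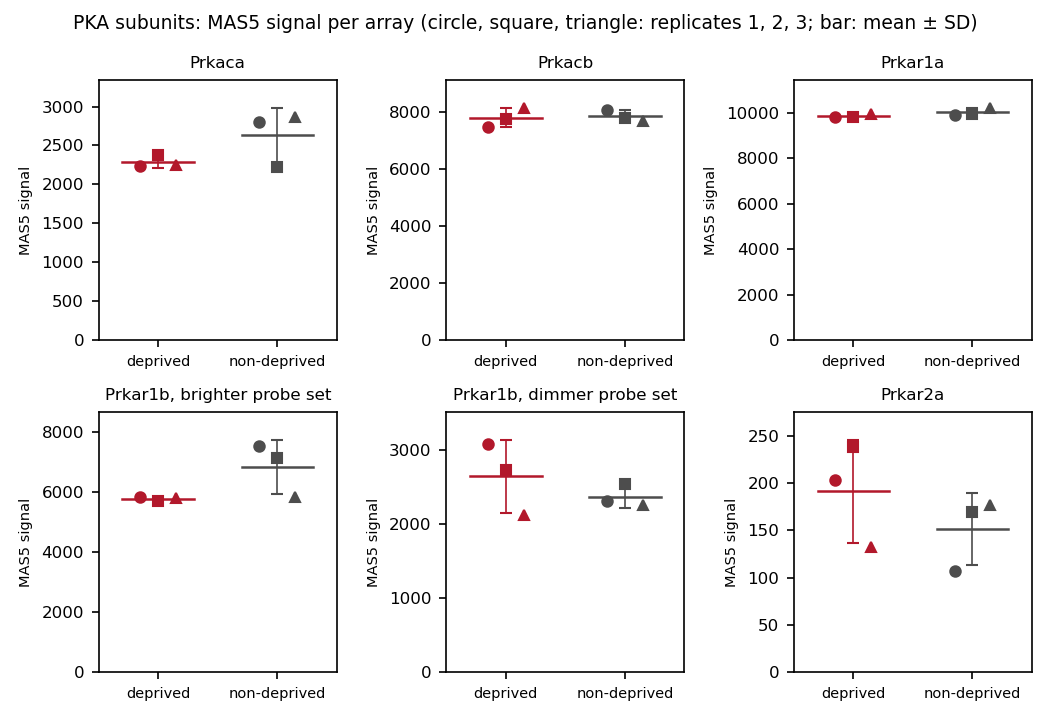
MAS5 signal (y axis, from 0) of the PKA subunit probe sets on each array, deprived arrays left and non-deprived arrays right; symbols are replicates and bars are mean ± SD. Prkacb and Prkar1a lie level, while the 2 probe sets of Prkar1b differ in direction.

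A-kinase anchoring proteins place PKA in the cell. Of 9 genes, 5 were tested, 4 with a negative and 1 with a positive log2 difference (median -0.07). Akap2 read 149, 143 and 143 in deprived arrays, against 106, 221 and 347 in non-deprived arrays. Its non-deprived arrays spread over more than the distance between the groups (log2 difference -0.44, SE 0.38), and the difference was -0.87 without non-deprived replicate 1 and -0.08 without non-deprived replicate 3. Akap8l, a nuclear relative of Akap8, behaved likewise, with 1117, 1245 and 1169.8 in deprived arrays, against 1027, 1502 and 1673 in non-deprived arrays. Its log2 difference of -0.22 (SE 0.17) was -0.43 without non-deprived replicate 1 (unadjusted p = 0.00649, limma adjusted p = 0.498) and -0.08 without non-deprived replicate 3.

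Akap1, which anchors PKA at mitochondria, read 709, 924 and 876 in deprived arrays, against 822, 924 and 884 in non-deprived arrays (log2 difference -0.07, SE 0.14). A dimmer probe set read 356, 412 and 321 in deprived arrays, against 320.1, 435 and 269 in non-deprived arrays (log2 difference 0.10, SE 0.21). On its dimmest probe set Akap1 read 313, 164 and 198 in deprived arrays, against 158.5, 222 and 91.3 in non-deprived arrays (log2 difference 0.50, SE 0.36). The groups overlapped on all 3. Akap8, a nuclear anchoring protein, read 399, 320.2 and 419.9 in deprived arrays, against 303, 372 and 497 in non-deprived arrays, on a probe set that can take signal from related transcripts (log2 difference -0.02, SE 0.21; 0.16 without non-deprived replicate 3). Another Akap8 probe set read 327, 323 and 330.2 in deprived arrays, against 286, 317 and 278 in non-deprived arrays, without overlap (log2 difference 0.15, SE 0.17), and the dimmest tested one had a log2 difference of -0.12 (SE 0.31). Akap9, a scaffold of the Golgi and centrosome, had 0.25 (SE 0.26). Of the 5 pathway genes with more than 1 tested probe set, 4 (Akap1, Akap8, Pde1a and Prkar1b) had probe sets of opposite sign, and Adcy9 did not.

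Of 10 genes for transcription factors and their co-activator, 8 were tested and none passed. The log2 difference was negative for 6 and positive for 2. Creb1, the factor for which the pathway is named, was too dim to test on any of its 3 probe sets. The brightest read 126.5, 109.5 and 87.6 in deprived arrays, against 142, 58.1 and 109.9 in non-deprived arrays. The groups overlapped, and a fit without the filter gave a log2 difference of 0.11 (SE 0.38). The other 2 probe sets of Creb1 gave 0.37 (SE 0.49) and 0.60 (SE 0.40), and neither is shown to be above background.

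Crem, a relative of CREB whose gene also makes a short, cAMP-inducible repressor, read 124, 137 and 176 in deprived arrays, against 167, 147 and 207 in non-deprived arrays. The groups overlapped (log2 difference -0.23, SE 0.29, 95% interval -0.88 to 0.42), and without non-deprived replicate 3 the log2 difference was -0.11. The probes of this set are shared between transcripts, so repressor and activator forms cannot be told apart. A dimmer Crem probe set, not tested, read 14.5, 92.7 and 83.6 in deprived arrays, against 112, 70.7 and 126 in non-deprived arrays (log2 difference -0.75, SE 0.52, without the filter).

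Crebbp, the co-activator that binds phosphorylated CREB, read 936, 638 and 926 in deprived arrays, against 733, 615 and 906 in non-deprived arrays. Replicate 2 was the lowest array of both groups, and the log2 difference was 0.14 (SE 0.19), or 0.28 without non-deprived replicate 3 and 0.01 without non-deprived replicate 2. Atf2, a target of stress-activated kinases, read 1897, 1577 and 1773 in deprived arrays, against 1745, 1738 and 1757 in non-deprived arrays (log2 difference 0.00, SE 0.10, 95% interval -0.23 to 0.23). Atf4, the factor of the integrated stress response, read 1903, 1671 and 1865 in deprived arrays, against 2283, 1878 and 2098 in non-deprived arrays. Only non-deprived replicate 2 lay among the deprived arrays (log2 difference -0.20, SE 0.11, limma adjusted p = 0.967).

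Atf5 had the lowest log2 difference of the tested pathway genes and the widest interval. It read 211, 39.6 and 157 in deprived arrays, against 104.3, 260.5 and 264 in non-deprived arrays (log2 difference -0.70, SE 0.55, 95% interval -1.93 to 0.53), with deprived replicate 2 far below the rest. Without that array the log2 difference of Atf5 was -0.09, and without deprived replicate 1 it was -1.10. The log2 differences of Atf3, a stress-induced factor, Atf6, a sensor of unfolded protein in the endoplasmic reticulum, and Creb3l1, a membrane-bound relative, were -0.06 (SE 0.23), 0.09 (SE 0.16) and 0.00 (SE 0.12).

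**Figure D3:**
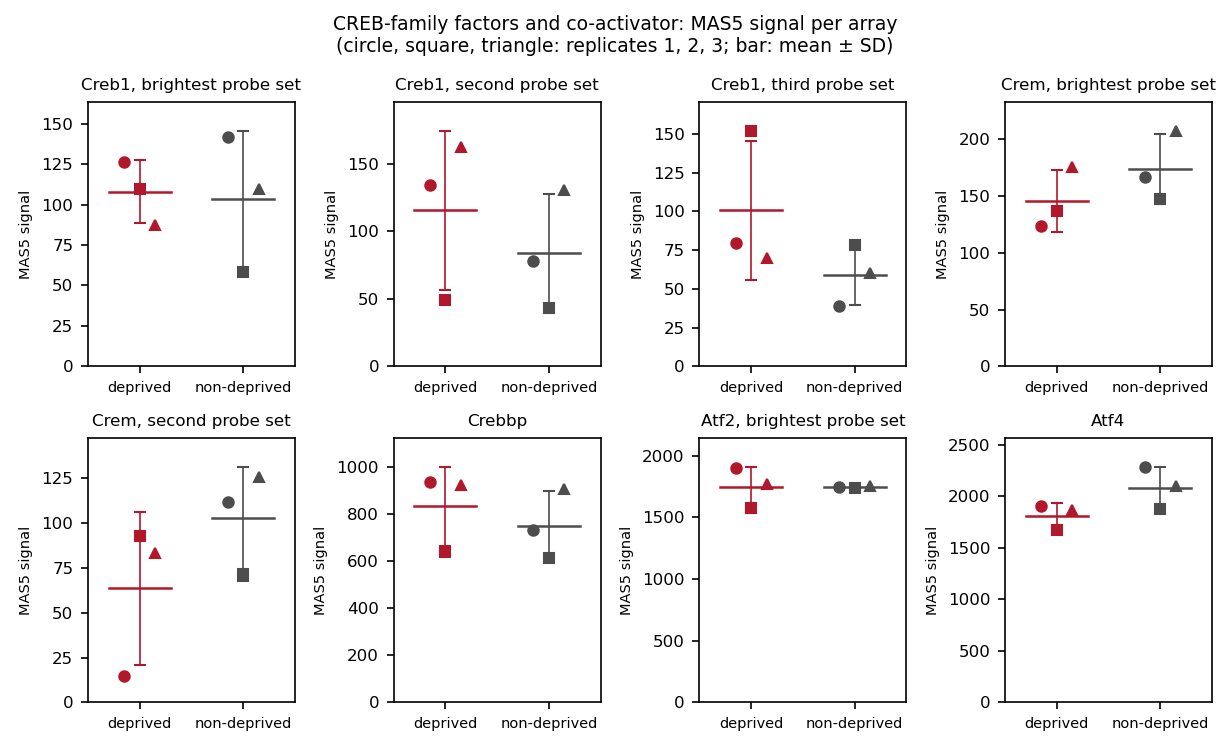
MAS5 signal (y axis, from 0) of CREB-family factors and Crebbp on each array, deprived arrays left and non-deprived arrays right; symbols are replicates and bars are mean ± SD. The arrays of both groups overlap in every panel, and the 3 Creb1 probe sets stay below a signal of 163.

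The 11 genes that missed the filter were Adcy7, Pde1c, Pde6b, Pde6g, Pde8a, Akap4, Akap7, Akap12, Akap17b, Creb1 and Crebrf. Their mean signals ran from 9.67 for Pde1c to 127 for Crebrf, and a signal of this size could not be told from background. Pde6b and Pde6g belong to rod photoreceptors and Akap4 to the sperm tail. Adcy7 read 37.5, 105 and 62.1 in deprived arrays, against 153, 161 and 139.9 in non-deprived arrays, and the groups did not overlap. In a fit of all probe sets without the filter its log2 difference was -1.07 (SE 0.37, limma adjusted p = 0.949). Akap12, a scaffold at the plasma membrane, read 50.8, 85.7 and 107 in deprived arrays, against 131, 121 and 118 in non-deprived arrays, also without overlap (log2 difference -0.57, SE 0.35, limma adjusted p = 0.979 without the filter). Among all tested genes 10.4% had groups apart. The share among all genes under the filter was not computed, so these cases are a description.

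**Figure D4:**
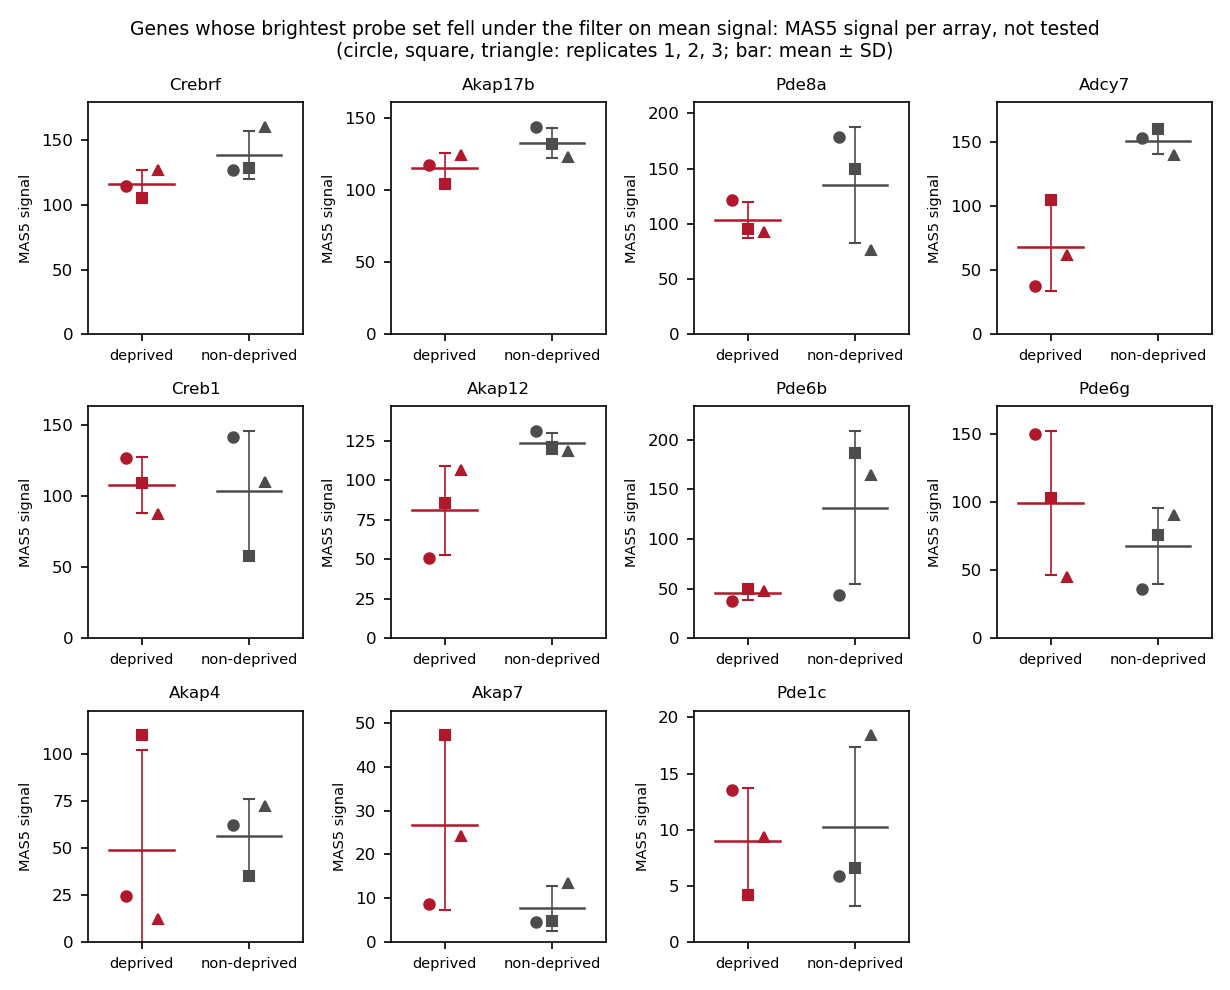
MAS5 signal (y axis, from 0) of the 11 pathway genes that missed the filter on mean signal, deprived arrays left and non-deprived arrays right; symbols are replicates and bars are mean ± SD. Adcy7 and Akap12 have groups apart, and the other 9 overlap, where 10.4% of all tested genes had groups apart.

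A wider list of 42 pathway genes took in G proteins, PKA inhibitors, cAMP-activated exchange factors and channels, CREB co-activators and CREB kinases. Of these, 22 had a probe set and 18 were tested. By limma 0 passed in either direction, and 0 had an unadjusted p under 0.05. The log2 difference was negative for 9 and positive for 9 (median 0.00). Gnao1, an inhibitory-class G protein subunit of neurons, read 9883, 10976 and 11346 in deprived arrays, against 11281.5, 11277 and 13376 in non-deprived arrays (log2 difference -0.16, SE 0.09, limma adjusted p = 0.967; -0.07 without non-deprived replicate 3). Pkia, a peptide inhibitor of PKA, read 959, 768 and 1505 in deprived arrays, against 782, 750 and 897 in non-deprived arrays. Its log2 difference of 0.35 (SE 0.22) was 0.09 without deprived replicate 3 and 0.06 by the mean of its tested probe sets. Gnas, the stimulatory subunit that activates adenylyl cyclases, named after its values were seen, read 28725 ± 659 in deprived and 28576 ± 524 in non-deprived arrays (SD, n = 3 each; log2 difference 0.01, 95% interval -0.12 to 0.13).

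Genes known as CREB targets were read beside the pathway itself. Of 36 listed, 25 were tested, and 7 fell in deprived cortex by limma with adjustment over all probe sets (Fos, Nr4a1, Egr1, Dusp1, Junb, Ier2 and Bdnf), where 0.177% of all genes fell; none rose. The median log2 difference was -0.39 over the 25 genes. The list was drawn up with the fall of these genes already known, and most of them answer to other factors too, so its count is a description. Ier2 kept its call in 7 of 16 alternatives (adjusted p 0.0183 to 0.181) and lost it whichever array was left out. Bdnf kept it in 8 of 16 (adjusted p 0.022 to 0.253) and, among the fits with an array left out, only in that without deprived replicate 2.

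**Figure D5:**
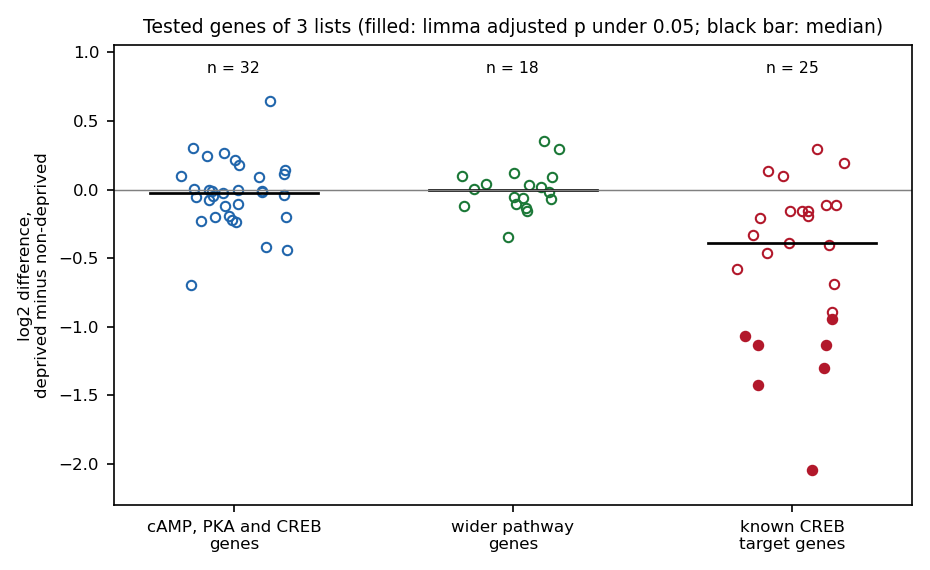
Log2 difference, deprived minus non-deprived (y axis), of the tested genes of 3 lists; each circle is a gene, filled where the limma adjusted p was under 0.05, and the black bar is the median. The 32 pathway genes and 18 wider pathway genes lie around 0, and 7 of 25 CREB target genes are filled, all below 0.

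Fos, the immediate-early factor whose core CRE begins at -66 from the start site, read 758, 602 and 749 in deprived arrays, against 2837, 2784 and 3217 in non-deprived arrays (log2 difference -2.05, SE 0.12, limma adjusted p = 0.00014). Nr4a1, a nuclear receptor with cores at -69 and -40, read 903, 876 and 849 in deprived arrays, against 2237, 2068 and 2258 in non-deprived arrays (log2 difference -1.30, SE 0.10, limma adjusted p = 0.000481). For both genes every deprived array was far below every non-deprived array. By brightest probe set, 2 of the 32 tested pathway genes (6.25%), Pde7a and Pde6d, had groups apart, where 10.4% of all tested genes did.

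Egr1, a zinc finger immediate-early factor, read 2662, 3077 and 2798 in deprived arrays, against 6174, 6604.4 and 5965 in non-deprived arrays (log2 difference -1.13, SE 0.09, limma adjusted p = 0.000481). Dusp1, a phosphatase that switches off MAP kinases, read 1433, 1207 and 1314 in deprived arrays, against 3023, 2660 and 3025 in non-deprived arrays (log2 difference -1.13, SE 0.11, limma adjusted p = 0.00136). Both were 2.19-fold lower in deprived cortex. Junb, a partner of Fos, read 908, 847 and 1187 in deprived arrays, against 2832, 2644 and 2446 in non-deprived arrays (log2 difference -1.43, SE 0.14, limma adjusted p = 0.00145). Ier2, another early response gene, read 359, 308 and 332 in deprived arrays, against 779, 747 and 628 in non-deprived arrays (log2 difference -1.07, SE 0.15, limma adjusted p = 0.0308). The groups of all these genes lay apart. Bdnf, a neurotrophin, read 653, 848 and 621 in deprived arrays, against 1227, 1411 and 1461 in non-deprived arrays (log2 difference -0.94, SE 0.14, limma adjusted p = 0.0446). With Sst, Scg2 and others, 13 of the 25 tested targets (52%) had groups apart, 12 of them with deprived arrays lower, where 10.4% of all tested genes had groups apart in either direction.

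Sst, the neuropeptide somatostatin, has a full CRE that begins at -48. It read 3391, 3457 and 3491 in deprived arrays, against 4792, 4578 and 4193 in non-deprived arrays. The groups did not overlap, and the difference did not pass (log2 difference -0.39, SE 0.08, limma adjusted p = 0.26). Scg2, a secretory granule protein with a full CRE that begins at -68, read 730, 626 and 692 in deprived arrays, against 924, 1014 and 894 in non-deprived arrays (log2 difference -0.46, SE 0.12, limma adjusted p = 0.606). The other 2 genes named from the list for their small p were Btg2, a growth regulator (log2 difference -0.90, SE 0.16, limma adjusted p = 0.137), and Fosb, a partner of Jun proteins (log2 difference -0.69, SE 0.14, limma adjusted p = 0.233).

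Of the 30 CREB target genes with a probe set, 25 had a promoter in the RefSeq table. The core was present in 23 of the 25 (92.0%) and the full site in 5 (20%), against 23.0% and 2.03% of all genes. Per promoter, the core stood in 72.7% and the full site in 15.2%, against 20.8% and 1.79% of all promoters. Such genes are known as targets partly because of these letters, so the share is no independent result. Among targets that fell, all 5 with a promoter held the core and 1 the full site. Among tested targets that did not pass, 14 of 16 held the core and 3 the full site. Per promoter the order was reversed. The core stood in 5 of 11 promoters (45.5%) of targets that fell and in 15 of 18 (83.3%) of those that did not pass. For the full site the shares were 9.09% and 16.7%.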

How the data were processed

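The authors deposited 1 table of 12488 probe sets on 6 arrays; per the submitters' processing notes, its intensity values are MAS5 signals, on a linear scale. All arrays had a 2% trimmed mean of 500.3 as deposited, and scaling to it hides any change in total mRNA. Detection calls were not used here. After removal of 66 control probe sets, the 7453 brightest (the top 60% by mean signal, at least 134.7) were fitted on log2(signal + 16), which understates changes of low signals, with limma 3.58.1 in R 4.3.3 (lmFit, eBayes with an intensity trend, group as the only term, two-sided), and p-values were adjusted by Benjamini-Hochberg over all 7453; the threshold was an adjusted p under 0.05. The fit was run on simulated data with independent normal noise as a check of the code, and its recovery of small changes is not given here. The number of arrays limits precision.

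Symbols came from the platform annotation: 10855 probe sets had 1 symbol, 396 had several and 1237 had none. Of these, 10839 matched RefSeq (GRCm38.p6) by Entrez ID, and no symbol changed. RefSeq's table holds 76 genes that match the symbols, of which 34 had no probe set of their own and were not analysed here.

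Genes named with per-array values were those past the threshold, the 2 with the smallest p in each role or list, the PKA subunits and main CREB-family genes, those with discordant probe sets, and those next to the filter; Pde6d, Adcy7, Akap12, Gnas, Sst and Scg2 were added after their values were seen. The genes and lists were chosen with earlier results of these data known. Alternatives were no scaling or quantile normalization, another pseudocount (1 or 64), the top 40% or all probe sets, the replicate number as a block, each array left out, no intensity trend, and 1 probe set or the mean per gene.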

Additional observations from a re-analysis of the deposited data

How the results depend on the processing

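Under all 16 alternatives run, 0 pathway genes and 0 wider pathway genes passed. The 20 named pathway genes gave 314 values under these alternatives, none past the threshold; the smallest adjusted p of any pathway gene was 0.482, without non-deprived replicate 3. The sign was not stable for Akap1, Akap8, Adcy2, Atf2, Pde1a, Prkacb and Prkar1a, each of which crossed 0 in 1 to 3 alternatives. The median log2 difference of the tested pathway genes was -0.046 with no filter, where the 11 dim genes enter, and -0.0528 to -0.0119 with 1 array left out. Over all probe sets 13 passed, 7 to 10 with 1 array left out (7 on leaving out non-deprived replicate 2, and 8 on leaving out either deprived replicate 3 or non-deprived replicate 3), where fewer samples enter. Of the CREB target genes, 5 to 7 passed in each alternative, among 20 tested with the top 40%, 30 with no filter and 25 in the others. Arrays of the same replicate number did not deviate together (correlations of 0.003, 0.049 and -0.02), so the numbers were not taken as pairs; with the number as a replicate block, 10 probe sets, 0 pathway genes and 5 CREB targets passed. Signals under the filter could not be told from background, which leaves the level of Creb1 unknown.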
